A study of Mus musculus with 21 samples.

Results

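The proteasome is the large protease complex that degrades proteins marked with ubiquitin. Its barrel-shaped 20S core is built of alpha subunits, which form the outer rings and the gate, and beta subunits, which form the inner rings and carry the catalytic sites. The 19S regulatory particle docks on the core, where a ring of ATPases unfolds the substrate and other subunits bind ubiquitin and cut it off. Interferon can exchange the catalytic beta subunits for inducible counterparts (the immunoproteasome), and assembly chaperones, activators and an inhibitor complete the gene family.

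Its genes were taken by symbol, as every mouse gene named Psma to Psmg followed by a digit and with no pseudogene suffix. This rule found 45 of the 9657 genes in the files, and no measured value entered the choice. In the mouse annotation 50 symbols fit the rule. The other 5, Psma8, Psmb9, Psmb11, Psmc3ip and Psmg1, were not analysed here. The 45 genes fell into 8 roles: 7 alpha subunits, 7 constitutive beta subunits, the inducible beta subunits Psmb8 and Psmb10, 6 ATPases and 11 other subunits of the 19S particle, 3 chaperones of the 19S particle, 3 chaperones of the 20S core, and 6 activators and inhibitor. They lie on 16 chromosomes, 9 of them on chromosome 11.

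RNA came from wild-type primary mouse hepatocytes, liver cells kept in culture after isolation, collected on day 1. The cells received PBS or an RNAi agent against Ttr, which encodes the serum carrier protein transthyretin. The agents, TTR-1236, TTR-1186 and Reference 4, were each given at 0.2 µM and 2 µM, so there were 7 groups of 3 libraries. Libraries were made with QuantSeq, which reads the 3′ end of each mRNA, and values are CPM, the reads of a gene per 1000000 reads on the listed genes. Nothing in the labels tells whether replicate libraries stem from different mice or dishes. The p-values therefore speak of library-to-library spread, which may be technical.

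Totals ran from 14158740 to 37410773 reads per library, and the fewest reads behind a value of the 45 genes were 7, for Psma5 in 1 library. Ttr was at 2168 to 2336 CPM in the PBS libraries and at 3.19 to 27.1 CPM in the treated ones. Of the hepatocyte markers 12 of 14, Ttr included, were in the files, against 2 of 14 for Kupffer cells (Cd68 and Csf1r), 0 of 11 for lymphocytes and neutrophils, 2 of 8 for endothelial cells, 2 of 8 for stellate cells and 2 of 6 for biliary cells. Mitochondrial ribosomal RNA took 3.26%, 2.70% and 0.797% of the reads in PBS libraries 1, 2 and 3. It took 0.278% to 0.487% in TTR-1236 at 2 µM, 2.13% to 3.50% in Reference 4 at 0.2 µM and 0.383% to 1.098% in Reference 4 at 2 µM. In TTR-1186 at 2 µM library 2 stood apart, with 0.622% beside 1.95% and 2.21%. PBS library 3 also stood apart for several proteasome genes: Psme4 was at 91.0, 89.3 and 28.8 CPM in the 3 PBS libraries, Psmd11 at 138, 131 and 52.4 CPM, and Psma4 at 113, 116 and 52.4 CPM. In RNA from many cells, fewer cells of a type and less RNA per cell cannot be told apart.

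Proteasome genes were well expressed in these hepatocytes. The median of their mean levels was 91.8 CPM, against 23.9 CPM over all genes. Only 3 had a mean under 20 CPM, 21 lay at 20 to 100 CPM, 20 at 100 to 500 CPM and 1 above. Because a 3′ read count does not grow with transcript length, CPM can be set side by side between genes, apart from differences in how well each 3′ end is primed and annotated. For each gene the median over groups of the within-group coefficient of variation was taken. Its median over the members was 13.3% (6.69% to 72.3% from member to member), against 20.5% over all genes. Members and all genes also differ in level, and no comparison at matched level was made. The 7 group means lay within 1.5-fold of each other for 26 of the 45 genes and were over 2-fold apart for 3.

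The most abundant member was Psmd8, a lid subunit of the 19S particle, at a mean of 1142 CPM, from 1004 ± 43.0 CPM (SD, n = 3) in TTR-1186 at 0.2 µM to 1242 ± 152 CPM (SD, n = 3) in Reference 4 at 2 µM. Among the other subunits of this class Psmd12, a lid subunit, was lowest, with group means of 46.5 to 59.7 CPM. In the ATPase ring, Psmc1 led with group means of 281 to 598 CPM, and Psmc6 was lowest with 51.2 to 63.2 CPM. The ATPases stand in the ring in equal number, while their mRNA levels differed.

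In the 20S core the alpha subunits ran from Psma7, with group means of 158 to 222 CPM, down to Psma5 at 1.63 to 9.49 CPM. Psma5 also had the widest spread of all members, from 0.379 to 14.6 CPM over the libraries. Its 3′ end has near-identical copies in pseudogenes, so the assignment of its reads, and with it this level, is in doubt. The constitutive beta subunits ran from Psmb6 at 301 to 341 CPM down to Psmb2 at 14.3 to 25.9 CPM. Psmb4, a structural subunit of the inner ring, was the steadiest member, with a median coefficient of variation of 6.69% within groups.

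Inducible beta subunits were lower than the abundant constitutive ones: Psmb8 had group means of 32.9 to 57.7 CPM and Psmb10 of 36.2 to 48.4 CPM. The chaperones of the 20S core ran from Psmg4 (22.1 to 34.6 CPM) to Psmg2 (6.11 to 11.6 CPM), and those of the 19S particle from Psmd10 (46.2 to 55.2 CPM) to Psmd9 (17.5 to 28.2 CPM). Among activators and inhibitor, Psme1, a subunit of the interferon-inducible 11S activator, was highest with 146 to 201 CPM. Psme4, the nuclear activator PA200, was lowest with 33.3 to 69.7 CPM.

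**Figure D1:**
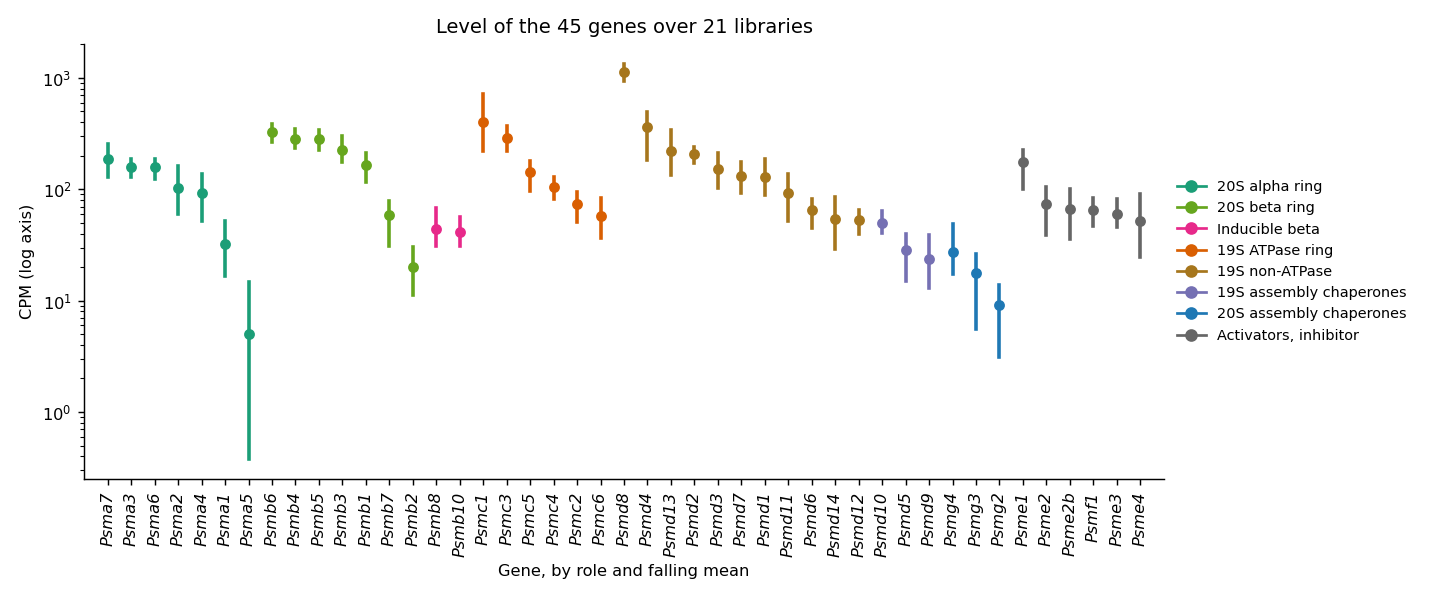
Mean CPM over the 21 libraries (points, log axis) and the range from the lowest to the highest library (bars) of each of the 45 genes, coloured by role. Psmd8 stands above all others at 1142 CPM and Psma5 lies lowest at 5.06 CPM with the longest bar.

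At 0.2 µM no proteasome gene passed the threshold against PBS for any agent (limma on log2(CPM + 1), adjusted p under 0.05 over all 9657 genes). The share of all genes past it was 0.0207% for TTR-1236, 0.0311% for TTR-1186 and 0.166% for Reference 4. At an unadjusted p under 0.05 there were 2, 6 and 5 of the 45 genes, against 6.89%, 9.61% and 14.8% of all genes. Members with all 3 treated libraries above all PBS libraries numbered 1 in TTR-1236, 4 in TTR-1186 and 3 in Reference 4, against 6.38%, 3.92% and 4.2% of all genes. Members with all of them below numbered 2, 3 and 2, against 5.41%, 9.6% and 10.5%. By edgeR and DESeq2 on reads recovered from the CPM, 0 of the 45 passed in these 3 comparisons. The median log2 fold change of the members was 0.05, -0.07 and -0.07, beside -0.00, -0.05 and -0.05 over all genes. All 6 comparisons with PBS share the same 3 PBS libraries, so their values are not independent of each other.

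For TTR-1236 at 0.2 µM the smallest p in each direction belonged to Psma5 and Psmd4. Psma5, an alpha subunit, was at 4.50, 11.8 and 3.04 CPM, and at 0.908, 2.98 and 0.987 CPM in PBS. All 3 treated libraries were above the PBS libraries, with a log2 fold change of 1.41 (SE 0.66, limma adjusted p = 0.715). Psmd4, a ubiquitin receptor of the 19S particle, was at 376, 209 and 313 CPM, against 491, 481 and 397 CPM in PBS. The groups did not overlap, with a log2 fold change of -0.64 (SE 0.22, limma adjusted p = 0.540).

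For TTR-1186 at 0.2 µM they belonged to Psmc3, an ATPase, and Psme2b, a near-identical copy of the activator gene Psme2. Psmc3 was at 340.5, 368 and 373 CPM, against 251.5, 296 and 277 CPM in PBS, without overlap (log2 fold change 0.39, SE 0.14, limma adjusted p = 0.349). Psme2b was at 66.6, 35.9 and 45.2 CPM, against 99.7, 75.9 and 54.9 CPM in PBS, with overlap (log2 fold change -0.64, SE 0.21, limma adjusted p = 0.324). Neither difference passed.

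For Reference 4 at 0.2 µM they belonged to Psmc1, an ATPase that helps to open the gate of the core, and Psmg3, an assembly chaperone of the 20S core. Psmc1 was at 575, 725 and 493 CPM, against 406, 351 and 419.8 CPM in PBS. Every treated library was higher, with a log2 fold change of 0.59 (SE 0.19, limma adjusted p = 0.162). Psmg3 was at 15.5, 12.3 and 5.53 CPM, against 16.9, 24.2 and 18.3 CPM in PBS, also without overlap (log2 fold change -0.87, SE 0.33, limma adjusted p = 0.233).

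At 2 µM 1 proteasome gene passed against PBS, in TTR-1236. Psmd4 fell to 357, 182 and 203 CPM, from 491, 481 and 397 CPM in PBS. No treated library reached the lowest PBS library. The means were 247 ± 95.5 and 457 ± 51.4 CPM (SD, n = 3 each), and the log2 fold change was -0.94 (SE 0.22, 95% interval -1.39 to -0.49, limma adjusted p = 0.0172). This comparison called 6.33% of all genes, 4.89% as lower and 1.44% as higher, so 1 of 45 lies below the background. The call was lost when only the 6 libraries compared entered the fit and in 4 of the 6 fits that left out 1 of them. The highest adjusted p of those, 0.106, came without TTR-1236 2 µM library 3.

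In Reference 4 at 2 µM no member passed, while 2.25% of all genes did (0.59% higher and 1.66% lower). In TTR-1186 at 2 µM no member passed either, against 0.0518% of all genes (0.0104% higher and 0.0414% lower). At an unadjusted p under 0.05 there were 9 and 2 of the 45 by limma, against 20.2% and 9.22% of all genes, and 6 in TTR-1236, against 23.2%. All treated libraries lay above all PBS libraries for 4 members in TTR-1236, 2 in TTR-1186 and 4 in Reference 4, against 7.08%, 5.77% and 8.91% of all genes. They lay below for 2, 0 and 2, against 11.9%, 5.85% and 10.8%, and in either direction 19.7% of all genes were apart in Reference 4. For Reference 4 edgeR called 0 members and DESeq2 called 3 (Psma5 and Psmb8 higher, Psmd4 lower), where it called 7.73% of the 9469 genes to which it gave an adjusted p (2.58% higher and 5.15% lower). For TTR-1186 both called 0. Median log2 fold changes of the members were -0.01 (TTR-1236), 0.08 (TTR-1186) and 0.06 (Reference 4), beside -0.07, -0.01 and -0.03 over all genes.

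Psmd4 in Reference 4 at 2 µM was at 302, 288 and 206 CPM, with all 3 libraries below PBS. Its log2 fold change of -0.79 (SE 0.22) missed the threshold at a limma adjusted p of 0.0524. With the replicate number as a block it was -0.79 with an adjusted p of 0.0391, so that this 1 gene was called. For this comparison the deviations of same-numbered libraries correlated weakly, at 0.10, 0.13 and 0.16, and the labels do not say that the numbers pair anything. Psmd4 was called in 5 of the 10 alternative settings, the block included, and in 1 of 6 fits that left out 1 library. In TTR-1186 at 2 µM Psmd4 was at 387, 463 and 378 CPM, which overlapped PBS (log2 fold change -0.16, 95% interval -0.61 to 0.29).

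Psmb8, the inducible chymotrypsin-like subunit, had the smallest p among members with higher levels in both TTR-1236 and Reference 4 at 2 µM. It was at 46.5, 67.8 and 58.8 CPM in TTR-1236 and at 53.9, 55.9 and 63.3 CPM in Reference 4, against 40.6, 32.3 and 40.2 CPM in PBS. No library of either group overlapped PBS. The log2 fold changes were 0.59 and 0.61 (SE 0.20 each) with limma adjusted p of 0.0691 and 0.0841, so neither passed. Of the 10 alternative settings, 3 called Psmb8 in TTR-1236 and 2 in Reference 4, with DESeq2 among them for both. In TTR-1186 at 2 µM the smallest p belonged to Psma5 (6.42, 3.86 and 11.6 CPM, log2 fold change 1.64, SE 0.66, limma adjusted p = 0.424) and Psme1 (178, 101 and 160.2 CPM, against 146, 176 and 197 CPM in PBS, log2 fold change -0.27, SE 0.17, limma adjusted p = 0.635).

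PBS library 3 bears on the counts at 2 µM. Without it, 6 members passed for TTR-1236 (Psmb8 higher and Psma4, Psmd11, Psmd4, Psmd7 and Psme4 lower) and 5 for Reference 4 (Psmb8 higher and Psmd11, Psmd4, Psmd7 and Psme4 lower). The calls over all genes rose as well, to 16.4% (3.97% higher and 12.5% lower) and 13.2% (3.75% higher and 9.42% lower), so the members' counts lie near or below the background of those fits. Psmb8 then had a log2 fold change of 0.64 (adjusted p = 0.0459) in TTR-1236 and of 0.65 (adjusted p = 0.0485) in Reference 4, by limma. Psmd4 then had -1.04 (adjusted p = 0.00521) and -0.89 (adjusted p = 0.0185). The part of the low mitochondrial ribosomal RNA share of that library in these differences was not tested.

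**Figure D2:**
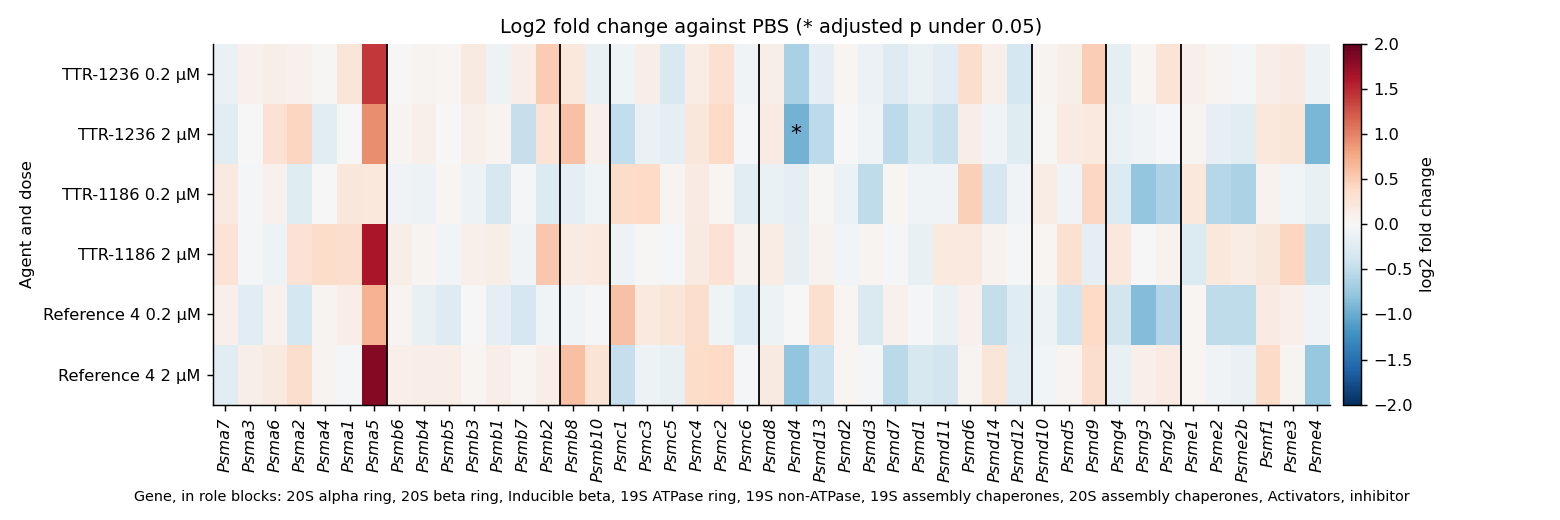
Log2 fold change on log2(CPM + 1) of each gene (columns, in role blocks) against PBS for each agent and dose (rows), with an asterisk where the adjusted p was under 0.05. The only asterisk is on Psmd4 in TTR-1236 at 2 µM, at -0.94, and most cells are pale, apart from Psma5, whose levels were between 0.379 and 14.6 CPM.

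Between the doses of Reference 4, 6 of the 45 genes passed, 4 lower and 2 higher at 2 µM, where 12.8% of all genes passed (6.05% lower and 6.78% higher). The share of members called is thus near that of all genes. The 4 lower genes all belong to the 19S regulatory particle: Psmc1 (ENSMUSG00000021178, chr12:100110154-100123405), Psmd4 (ENSMUSG00000005625, chr3:95032694-95042614), Psmd13 (ENSMUSG00000025487, chr7:140881968-140898643) and Psmd7 (ENSMUSG00000039067, chr8:107580381-107588464), in GRCm38. The 2 higher ones belong to the 20S core, Psma2 (ENSMUSG00000015671, chr13:14613240-14674236) to its alpha ring and Psmb8 (ENSMUSG00000024338, chr17:34197721-34201454) to the inducible beta subunits. The median log2 fold change of all 45 was 0.09, beside 0.03 over all genes.

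Psmc1, an ATPase, was at 575, 725 and 493 CPM at 0.2 µM and at 355, 290.2 and 220.4 CPM at 2 µM. All libraries at 2 µM were below all libraries at 0.2 µM. The log2 fold change was -1.06 (SE 0.19, 95% interval -1.45 to -0.66, limma adjusted p = 0.00253), and the call held in 6 of 6 fits that each left out 1 of the libraries compared. PBS libraries lay between the doses or among the 2 µM values, at 351 to 419.8 CPM.

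Psmd4 was at 495, 465 and 411 CPM at 0.2 µM and at 302, 288 and 206 CPM at 2 µM. The groups did not overlap, and the 0.2 µM libraries lay at the level of PBS (log2 fold change 0.00, 95% interval -0.45 to 0.45). Between the doses its log2 fold change was -0.80 (SE 0.22, limma adjusted p = 0.0208).

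Psmd13, a structural lid subunit of the 19S particle, was at 313, 338 and 223 CPM at 0.2 µM and at 189, 178 and 147 CPM at 2 µM. These groups did not overlap, with a log2 fold change of -0.75 (SE 0.18, limma adjusted p = 0.0116). Against PBS the log2 fold change of Psmd13 at 0.2 µM was 0.31, which did not pass, so part of its dose difference lay there too. Psmd7, the lid subunit that pairs with the deubiquitinase Psmd14, was at 163, 135 and 167 CPM at 0.2 µM and at 96.4, 111 and 92.2 CPM at 2 µM, again without overlap. Its log2 fold change was -0.63 (SE 0.19, limma adjusted p = 0.0330). Psmd14 itself was at 52.0, 37.4 and 31.1 CPM and at 45.4, 71.9 and 85.5 CPM, with overlap (log2 fold change 0.72, SE 0.29, limma adjusted p = 0.0979).

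Psma2 was at 89.3, 66.3 and 65.3 CPM at 0.2 µM and rose to 104, 112 and 147 CPM at 2 µM. The groups did not overlap (log2 fold change 0.71, SE 0.21, limma adjusted p = 0.0316). Against PBS the log2 fold change of Psma2 at 0.2 µM was -0.35, which did not pass. By these estimates part of its dose difference lay at 0.2 µM. Psmb8 was at 37.9, 37.8 and 31.2 CPM at 0.2 µM and rose to 53.9, 55.9 and 63.3 CPM at 2 µM, without overlap (log2 fold change 0.68, SE 0.20, limma adjusted p = 0.0254). Its fewest reads in any of these libraries were 463.

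These calls rest in part on single libraries. Leaving out each of the 6 libraries in turn, Psmd13 passed in 4 fits, Psmd4 in 3, Psma2 and Psmb8 in 2 each and Psmd7 in 1. Without Reference 4 2 µM library 3 Psmc1 alone passed, and the adjusted p of Psmd4, Psmd13, Psmd7, Psma2 and Psmb8 were 0.138, 0.0864, 0.140, 0.186 and 0.127. All 6 genes were called in each of the 10 other settings tried, edgeR and DESeq2 on the recovered reads included.

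**Figure D3:**
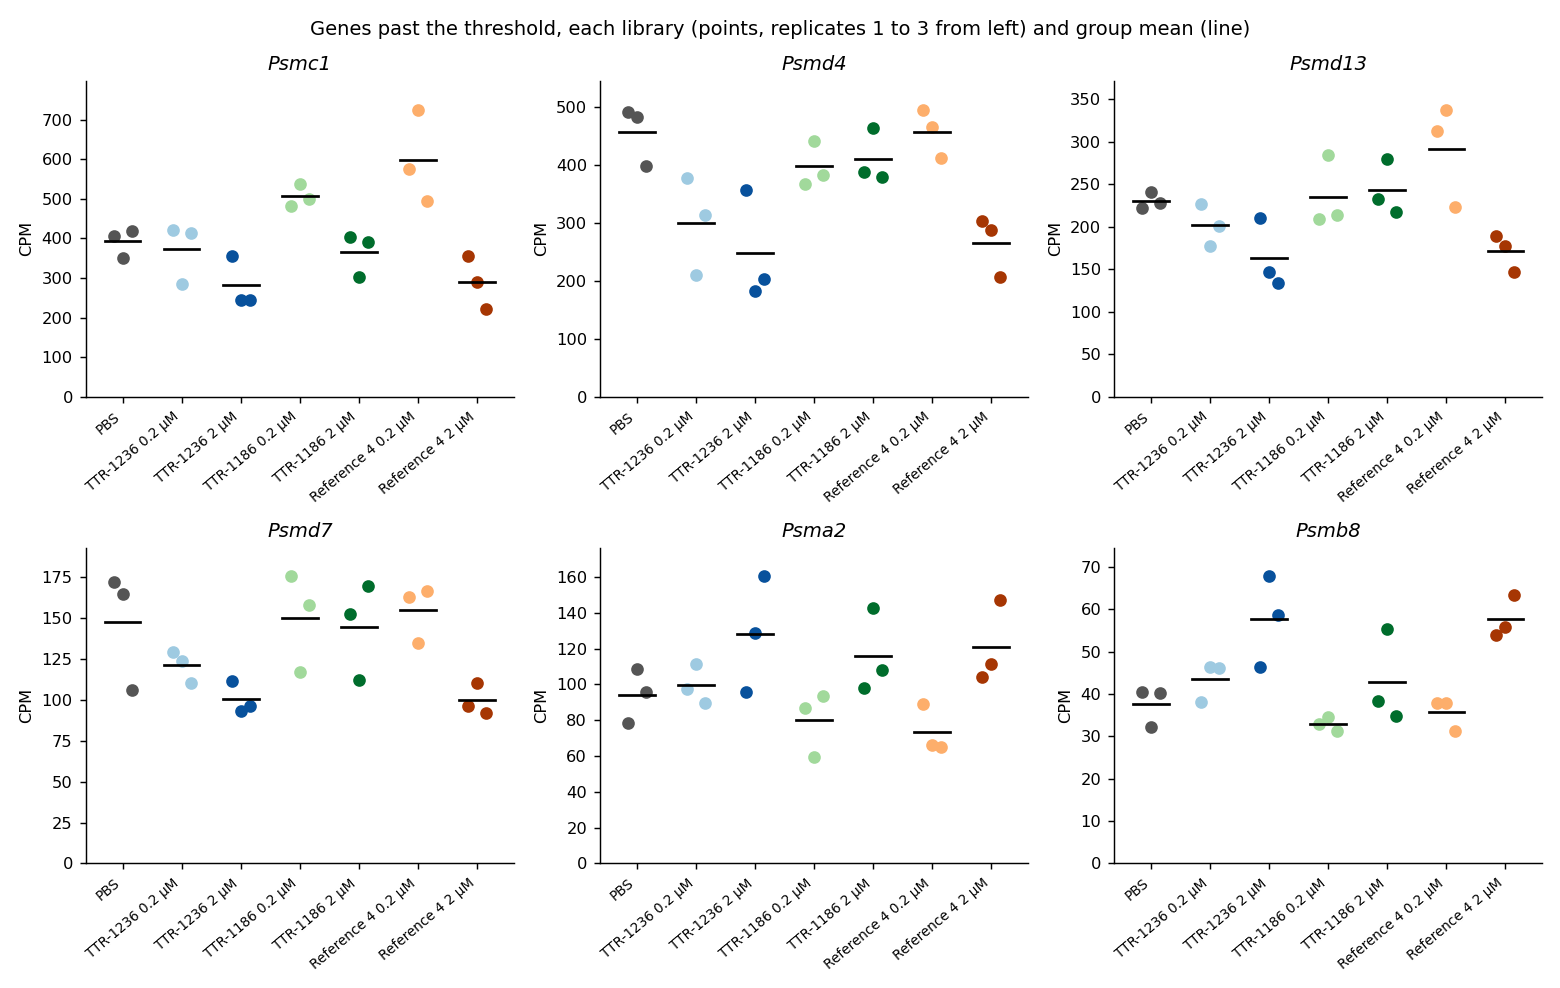
CPM in each library (points, replicates 1 to 3 from left) and group mean (line) of the 6 genes past the threshold in any comparison, in all 7 groups. Psmc1, Psmd4, Psmd13 and Psmd7 lie lower in Reference 4 at 2 µM than at 0.2 µM with no overlap, Psma2 and Psmb8 lie higher, and the groups of TTR-1186 overlap between doses for all of these genes except Psmc1 (483 to 538 against 303 to 404 CPM), Psma2 (59.6 to 93.3 against 98.1 to 142 CPM) and Psmb8 (31.3 to 34.6 against 34.8 to 55.3 CPM).

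The dose of Reference 4 gave different counts by role. Over all genes 5044 of 9657 had a fold change above 0, with a median of 0.03, and differences between roles were not tested. Of the 7 constitutive beta subunits 7 had a fold change above 0 and 0 passed, with a median of 0.28. The 3 chaperones of the 20S core were all above 0 as well, with a median of 0.75, and Psmg3 came nearest to the threshold (0.97, SE 0.33, limma adjusted p = 0.0572). Of the 7 alpha subunits 5 were above 0 and 1 passed. Of the 6 ATPases 3 were below 0 and 1 passed, and of the 11 other 19S subunits 6 were below 0 and 3 passed. Over the 45 genes 11 had all 2 µM libraries above all 0.2 µM libraries and 9 all below, against 17.1% and 16.8% of all genes.

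Other measures moved between the same doses. The summed level of the hepatocyte markers without Ttr was 14534 to 17681 CPM at 0.2 µM and 19059 to 21754 CPM at 2 µM, and 5 of them passed as higher. The 2 Kupffer cell markers summed to 85.1 to 184 CPM and 128 to 157 CPM, and 0 passed. The 2 stellate cell markers summed to 21.6 to 32.4 CPM and 14.6 to 27.3 CPM, and 1 of them, Acta2, fell (log2 fold change -1.28, SE 0.40, limma adjusted p = 0.0352). Of the 2 endothelial and the 2 biliary markers 0 passed. Mitochondrial ribosomal RNA fell (mt-Rnr2, log2 fold change -1.89, limma adjusted p = 0.0433). The 0.2 µM libraries held 14158740 to 14971332 reads and the 2 µM libraries 18802476 to 32927430. Their part in the changes of Psmc1, Psmd4, Psmd13, Psmd7, Psma2 and Psmb8 was not tested.

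**Figure D4:**
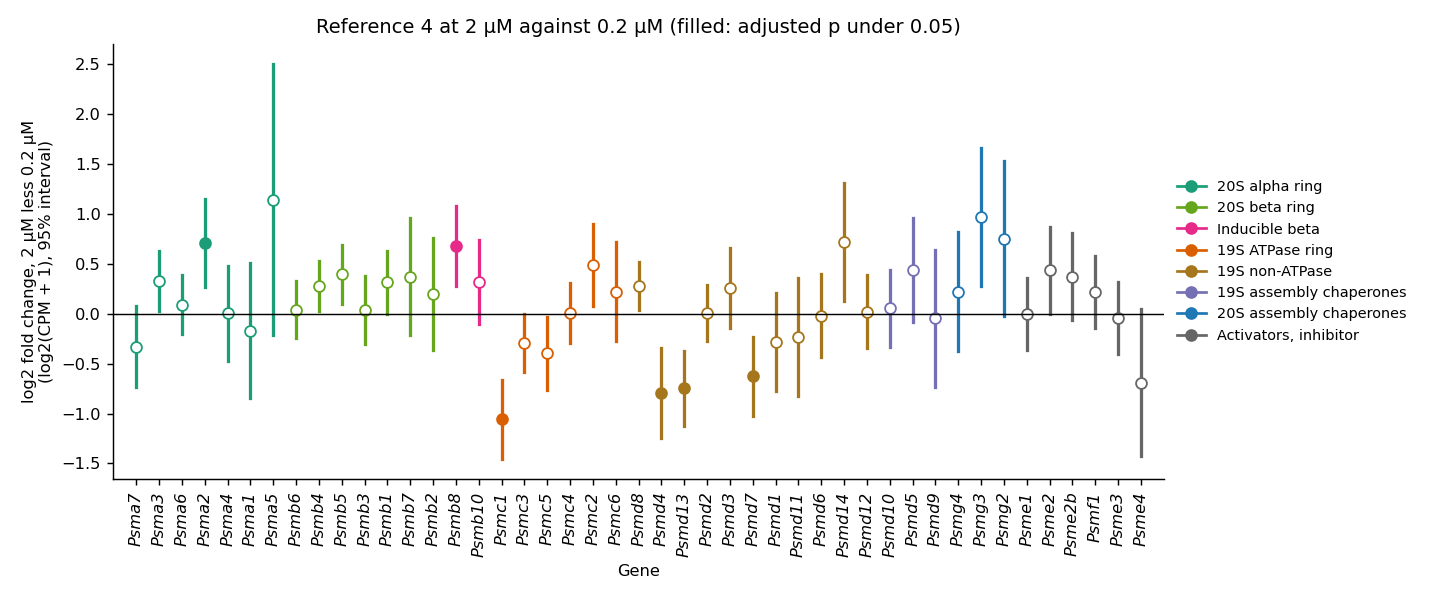
Log2 fold change of Reference 4 at 2 µM less 0.2 µM on log2(CPM + 1), with the 95% interval (bars), for each gene by role, filled where the adjusted p was under 0.05. Filled points below 0 are Psmc1, Psmd4, Psmd13 and Psmd7, and filled points above 0 are Psma2 and Psmb8.

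The dose of the other agents called no member by limma. For TTR-1236, 0.135% of all genes passed and 3 members had an unadjusted p under 0.05, against 11.5% of all genes. For TTR-1186, 0% of all genes passed and 13 members had an unadjusted p under 0.05, against 14.7% of all genes. The median log2 fold change of the members was -0.07 for TTR-1236, as over all genes, and 0.16 for TTR-1186, beside 0.01 over all genes. For TTR-1186 12 members had all 2 µM libraries above all 0.2 µM libraries and 3 all below, against 14% and 6.5% of all genes. There edgeR called 0 members and DESeq2 called 2, Psme2 and Psme2b, both higher at 2 µM. DESeq2 called 2.21% of the 4789 genes to which it gave an adjusted p there (1.55% higher and 0.668% lower). For TTR-1236 both tools called 0 members. Psme2 was at 73.4, 39.2 and 50.9 CPM at 0.2 µM of TTR-1186 and at 86.2, 89.97 and 99.7 CPM at 2 µM, without overlap (log2 fold change 0.79, SE 0.21, limma adjusted p = 0.155).

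Whether the dose effect differed between agents was tested as an interaction, and 0% of all genes passed in each of the 3 tests by limma. At an unadjusted p under 0.05 there were 8 members for TTR-1236 less Reference 4, 6 for TTR-1186 less Reference 4 and 3 for TTR-1236 less TTR-1186, against 9.46%, 9.05% and 6.81% of all genes. No member passed by edgeR or DESeq2. For Psmc1 the dose effect of TTR-1236 less that of Reference 4 was 0.65 on the log2 scale (95% interval 0.09 to 1.21, limma adjusted p = 0.431). For Psmd4 that of TTR-1186 less that of Reference 4 was 0.84 (95% interval 0.20 to 1.48, limma adjusted p = 0.464). So the calls in Reference 4 are not shown to be particular to it.

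Promoter sequences are shown for 3 of the called genes: Psmc1, which had the lowest adjusted p, Psmd4, the member called against PBS, and the inducible subunit Psmb8. The windows run from 250 bases before to 50 after the start in RefSeq (GRCm38.p6), on the strand of the gene, and capitals mark matches to a motif. That of Psmc1 lies at chr12:100109952-100110251 on the plus strand, that of Psmd4 at chr3:95042565-95042864 on the minus strand, and that of Psmb8 at chr17:34197945-34198244 on the plus strand. The Psmb8 window lies inside the gene as annotated, which begins at 34197721, so its RefSeq start is downstream of the annotated start.
Psmc1: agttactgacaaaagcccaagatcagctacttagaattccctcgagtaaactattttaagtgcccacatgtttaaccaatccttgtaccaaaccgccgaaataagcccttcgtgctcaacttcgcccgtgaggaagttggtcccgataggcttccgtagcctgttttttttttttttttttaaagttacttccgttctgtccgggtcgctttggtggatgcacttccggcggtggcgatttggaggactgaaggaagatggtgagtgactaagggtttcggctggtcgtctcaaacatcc
Psmd4: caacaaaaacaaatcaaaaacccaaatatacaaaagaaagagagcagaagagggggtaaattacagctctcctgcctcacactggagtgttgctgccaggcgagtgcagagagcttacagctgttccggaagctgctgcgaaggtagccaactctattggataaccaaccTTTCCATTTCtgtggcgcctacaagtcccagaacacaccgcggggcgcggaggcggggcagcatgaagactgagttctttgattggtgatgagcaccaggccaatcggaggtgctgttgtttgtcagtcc
Psmb8: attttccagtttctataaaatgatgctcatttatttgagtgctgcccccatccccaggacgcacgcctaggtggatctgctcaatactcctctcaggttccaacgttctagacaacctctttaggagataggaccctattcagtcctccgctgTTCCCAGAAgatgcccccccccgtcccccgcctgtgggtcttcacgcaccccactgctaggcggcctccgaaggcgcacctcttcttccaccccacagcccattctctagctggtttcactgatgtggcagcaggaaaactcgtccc

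A window was found for 38 of the 45 genes. The letters TGACNNNGC, the core of the element through which NRF1 drives proteasome genes, searched on both strands, were in 6 of the 38 windows and in 12.4% of 32851 windows of this length. TTCNNNGAA, the core letters of the interferon-gamma activated site, were in 2 of the 38 (among them Psmb8, where the match lies inside the annotated gene) and in 8.30% of all windows. GAAA, then any 2 bases, then GAAA, the letters of the interferon-stimulated element, on either strand, were in 5 of the 38 (among them Psmd4) and in 3.44% of all windows. A match describes letters only. Among the 3 windows printed, that of Psmc1 held none of the 3 motifs.

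The catalytic subunits were compared with their inducible counterparts, which replace them in the immunoproteasome. Psmb5, the constitutive chymotrypsin-like subunit, was at 239.7, 274 and 342 CPM in PBS, at 295, 274 and 302 CPM and at 329, 245 and 273 CPM in TTR-1236 at 0.2 and 2 µM, and at 274, 322 and 276 CPM and 271, 284 and 263 CPM in TTR-1186. In Reference 4 it was at 233, 249 and 227 CPM and at 277, 329.5 and 328 CPM. The Reference 4 doses did not overlap, with a log2 fold change of 0.39 (SE 0.14, limma adjusted p = 0.0668) that missed the threshold.

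Psmb6, the caspase-like subunit, was at 342, 300.4 and 301 CPM in PBS, at 338, 281 and 334 CPM and 389, 282 and 313 CPM in TTR-1236, and at 293, 340.4 and 268 CPM and 362, 335 and 326 CPM in TTR-1186, lower dose first. In Reference 4 it was at 344, 337 and 301 CPM and at 370.5, 309.8 and 333 CPM. All groups overlapped PBS, and its log2 fold changes against PBS ran from -0.07 to 0.12.

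Psmb7, the trypsin-like subunit, was at 59.2, 78.7 and 48.9 CPM in PBS, at 58.7, 75.1 and 69.4 CPM and 39.0, 66.7 and 32.4 CPM in TTR-1236, and at 69.5, 59.4 and 51.5 CPM and 68.9, 43.0 and 66.1 CPM in TTR-1186. In Reference 4 it was at 48.2, 31.2 and 74.5 CPM and at 48.9, 72.2 and 70.1 CPM. The spread within groups was as wide as that between them, and the lowest limma adjusted p against PBS was 0.334. Its 3′ end overlaps that of Nek6 on the other strand, and without a stated strand setting reads of the pair cannot be told apart.

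Psmb8 in the groups not yet given was at 38.0, 46.4 and 46.2 CPM in TTR-1236 at 0.2 µM, and at 32.8, 34.6 and 31.3 CPM and 38.5, 55.3 and 34.8 CPM in TTR-1186 at 0.2 and 2 µM. As a share of the Psmb5 and Psmb8 reads it ran from 9.70% to 21.7% over the libraries. The share was 11.8% ± 2.28 in PBS, 17.3% ± 4.66 in TTR-1236 at 2 µM, 13.1% ± 0.959 in Reference 4 at 0.2 µM and 15.7% ± 1.01 in Reference 4 at 2 µM (SD, n = 3 each). These shares are a description and were not tested. Both genes in them carry doubt in the assignment of reads. The 3′ end of Psmb5 has a near-identical copy in the pseudogene Gm3375, and the antisense gene Gm20496 overlaps the end of Psmb8.

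Psmb10, the inducible trypsin-like subunit, was at 44.8, 45.8 and 30.8 CPM in PBS, at 32.1, 40.8 and 35.6 CPM and 37.3, 40.1 and 51.7 CPM in TTR-1236, and at 33.7, 34.1 and 45.4 CPM and 40.04, 56.3 and 42.7 CPM in TTR-1186. In Reference 4 it was at 35.2, 42.0 and 38.8 CPM and at 49.4, 49.6 and 46.1 CPM, where the doses did not overlap (log2 fold change 0.32, 95% interval -0.10 to 0.73, limma adjusted p = 0.320). Thus only 1 of the 2 inducible subunits passed. The test of a difference between Psmb8 and Psmb10 was not made.

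The 11S activator, whose subunits are Psme1 and Psme2, called no change in any comparison by limma. Psme1 was at 168, 194 and 192 CPM and 182, 169.7 and 183 CPM in TTR-1236, at 178, 199.98 and 224 CPM in TTR-1186 at 0.2 µM, and at 161, 174 and 195 CPM and 194, 158 and 177 CPM in Reference 4. Its lowest library was TTR-1186 2 µM library 2, at 101 CPM. Without that library and PBS library 3, the fold change of Psme1 in TTR-1186 at 2 µM turned from -0.27 to 0.073, and neither value passed.

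Psme2 was at 105, 80.8 and 58.1 CPM in PBS, at 77.7, 89.4 and 79.5 CPM and 64.3, 87.1 and 62.7 CPM in TTR-1236, and at 54.8, 60.0 and 52.2 CPM and 78.02, 73.7 and 74.9 CPM in Reference 4. The Reference 4 doses did not overlap (log2 fold change 0.44, SE 0.21, limma adjusted p = 0.175). Psme2b took nearly the same values, with a ratio to Psme2 of 0.873 to 0.961 over the libraries. The last 300 bases of the genes are 99% identical, so their reads cannot be assigned with certainty. The counts given here hold them as 2 genes, although their values are not independent.

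Summed by part of the complex, the 17 genes of the 19S particle gave 3763 ± 44.4 CPM in PBS and the 14 constitutive genes of the 20S core 2069 ± 86.0 CPM (SD, n = 3). Their ratio in PBS was 1.87, 1.76 and 1.83 by library. It was 2.02, 2.15 and 1.92 in Reference 4 at 0.2 µM and 1.57, 1.67 and 1.48 at 2 µM, and 1.62, 1.62 and 1.51 in TTR-1236 at 2 µM. TTR-1236 at 0.2 µM had 1.75, 1.58 and 1.73. The ratios of TTR-1236 at both doses and of Reference 4 at 2 µM lay below all PBS libraries, those of TTR-1236 at 0.2 µM by little. TTR-1186 had 1.82 to 1.94 at 0.2 µM and 1.72 to 1.78 at 2 µM, and both overlapped PBS. Since Psmd8, Psmc1 and Psmd4 hold much of the 19S sum, the ratio follows Psmc1 and Psmd4 in part. It describes mRNA, was not tested and says nothing of assembled particles.

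Over all 45 genes the summed level hardly moved. The group means were between 6236 ± 269 CPM in TTR-1236 at 2 µM and 6813 ± 119 CPM in TTR-1186 at 2 µM, with 6581 ± 151 CPM in PBS (SD, n = 3 each).

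**Figure D5:**
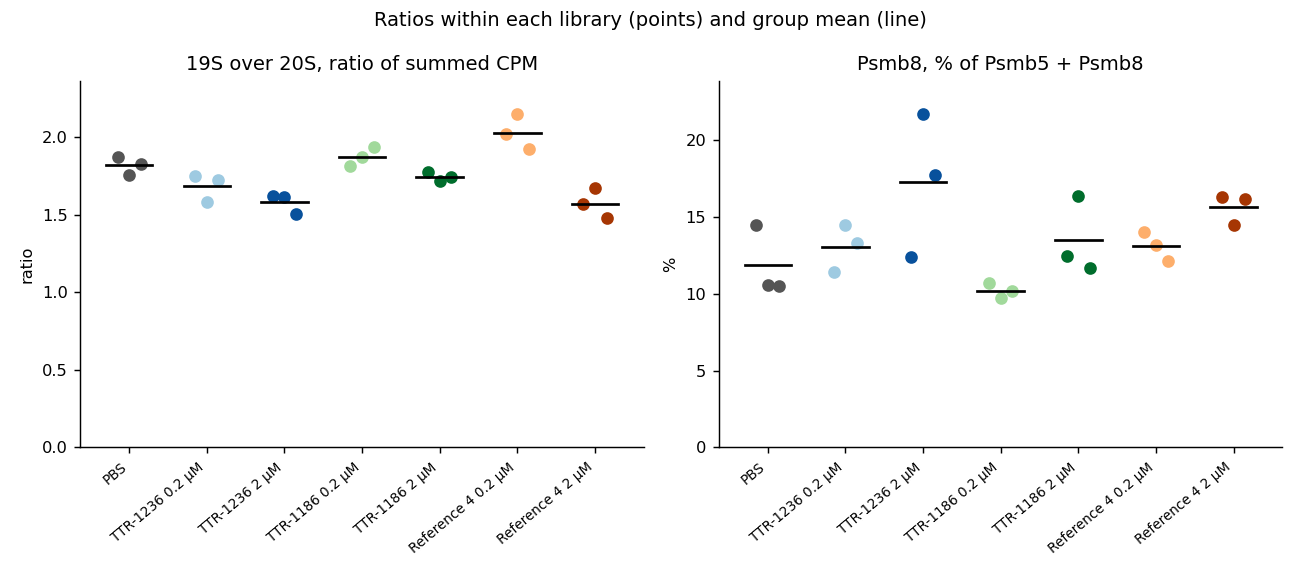
Left, summed CPM of the 17 genes of the 19S particle over that of the 14 constitutive genes of the 20S core; right, Psmb8 as a percentage of Psmb5 plus Psmb8, in each library (points) with the group mean (line). The ratio lies at 1.48 to 1.67 in Reference 4 at 2 µM against 1.92 to 2.15 at 0.2 µM, and the Psmb8 share reaches 21.7% in 1 library of TTR-1236 at 2 µM.

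Agents were compared with each other at matched doses in 6 pairs, and limma called no member in any of them. At 0.2 µM 0% of all genes passed in each pair. Members with an unadjusted p under 0.05 numbered 11 for TTR-1236 against Reference 4, 1 for TTR-1186 against Reference 4 and 7 for TTR-1236 against TTR-1186, beside 14%, 4.92% and 7.09% of all genes. At 2 µM the numbers were 0, 6 and 8 for the same pairs, beside 2.98%, 12.4% and 15.8% of all genes, while 0%, 0.373% and 0.342% of all genes passed after adjustment. By edgeR 0 members passed in the 6 pairs, and DESeq2 called 1, Psmc1, lower in TTR-1236 than in Reference 4 at 0.2 µM, where it called 2.46% of all genes (2.1% higher and 0.362% lower).

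In that pair Psmc1 was at 422, 284 and 413 CPM in TTR-1236 and 575, 725 and 493 CPM in Reference 4, without overlap (log2 fold change -0.68, 95% interval -1.08 to -0.29, limma adjusted p = 0.0965). In this pair 13 members had all TTR-1236 libraries above all Reference 4 libraries and 4 all below, against 15.1% and 9.19% of all genes. For Psmd4 TTR-1236 was below TTR-1186 at 2 µM, at 357, 182 and 203 CPM against 387, 463 and 378 CPM (log2 fold change -0.79, 95% interval -1.24 to -0.34, limma adjusted p = 0.0905). Between TTR-1236 and Reference 4 at 2 µM the interval for Psmd4 was -0.60 to 0.30 and that for Psmb8 -0.42 to 0.39.

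Genes that work with the proteasome were looked at from lists, chosen with earlier results of these data known. Of 16 further subunits and partners 12 were in the files, and 0 passed against PBS by limma at either dose of any agent. The smallest p belonged to Ubxn1, a cofactor of the p97 unfoldase, in Reference 4 at 0.2 µM (log2 fold change 0.51, SE 0.13, limma adjusted p = 0.0972). The genes named next were chosen for their role. Adrm1, a ubiquitin receptor of the 19S particle, was at 352 to 504 CPM in PBS and at 401 to 504 CPM in TTR-1236 at 2 µM, and Pomp, which helps the core mature, at 144 to 200.1 and 157 to 232 CPM. Both overlapped PBS. Between the doses of Reference 4, where 12.8% of all genes passed, 1 of the 12 did: Zfand2a, a stress-induced 19S partner named after its values were seen, rose from 7.20, 3.07 and 5.80 CPM to 18.5, 26.5 and 25.1 CPM (log2 fold change 1.98, SE 0.41, limma adjusted p = 0.00504). The PBS libraries lay between the doses, at 9.15, 14.2 and 10.1 CPM.

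Of 14 genes of the NRF1 pathway, which raises proteasome gene expression when protease capacity falls, 11 were in the files. Against PBS 1 passed by limma at 2 µM of TTR-1236, where 4.89% of all genes fell, and 0 at 2 µM of TTR-1186 and Reference 4, with medians of -0.59, -0.21 and -0.34, beside -0.07, -0.01 and -0.03 over all genes. The gene that passed was Ddi2, a protease that activates NRF1, at 43.6, 42.2 and 55.9 CPM against 80.4, 92.5 and 77.8 CPM in PBS (log2 fold change -0.82, SE 0.18, limma adjusted p = 0.0136). At 2 µM of TTR-1186 (51.4, 43.1 and 65.5 CPM) and Reference 4 (49.5, 61.3 and 48.9 CPM) all libraries also lay below PBS, without passing. The same held for TTR-1236 and TTR-1186 at 0.2 µM, while Reference 4 at 0.2 µM overlapped PBS. Nfe2l1, which encodes NRF1, was at 41.2, 61.04 and 47.95 CPM in TTR-1236 at 2 µM against 79.2, 104 and 60.2 CPM in PBS, with overlap, and did not pass.

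Of 19 genes for ubiquitin and its shuttles 15 were in the files. Against PBS 2 rose in TTR-1236 and 1 in Reference 4 at 2 µM by limma, where 1.44% and 0.59% of all genes rose, and 0 fell. Ubb, a polyubiquitin gene, rose at 2 µM of TTR-1236 to 391, 549 and 747 CPM and of Reference 4 to 489.8, 531 and 622 CPM, from 278, 336 and 286 CPM in PBS. No treated library overlapped PBS (log2 fold change 0.86 in both, SE 0.19, limma adjusted p = 0.0141 and 0.0202). In TTR-1186 at 2 µM 0 of the 15 passed by limma. Ubb was at 356 to 369 CPM there, also above every PBS library.

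Of 24 antigen processing and interferon-gamma genes, the usual company of the immunoproteasome, 21 were in the files. None rose against PBS by limma at 2 µM, and 3, 1 and 1 fell in TTR-1236, TTR-1186 and Reference 4, where 4.89%, 0.0414% and 1.66% of all genes fell. Between the doses of Reference 4, where Psmb8 rose, 1 of the 21 rose and 3 fell, against 6.78% and 6.05% of all genes. The gene that rose was B2m, the light chain of class I antigen molecules, named after its values were seen. It was at 1079, 1013 and 1086 CPM at 0.2 µM and at 1624, 2031 and 2039 CPM at 2 µM, without overlap (log2 fold change 0.83, SE 0.14, limma adjusted p = 0.00224). The PBS libraries lay between the doses, at 1382, 1358 and 1287 CPM. Jak1, the kinase of the interferon receptors, fell in all 3 groups, from 297, 309.5 and 256 CPM in PBS to 153, 121 and 122 CPM in TTR-1236, 165, 172 and 156 CPM in TTR-1186 and 137, 147 and 128 CPM in Reference 4. The log2 fold changes were -1.12, -0.80 and -1.06 (SE 0.13 each, limma adjusted p = 7.00e-05, 0.0120 and 0.000134). At 0.2 µM Jak1 passed as lower in Reference 4 (log2 fold change -0.64, limma adjusted p = 0.0430). It did not pass in TTR-1236 (197, 176 and 166 CPM) or TTR-1186 (199, 189 and 196 CPM), where all libraries also lay below PBS. Ifngr1, a chain of the interferon-gamma receptor, fell in TTR-1236 (log2 fold change -0.57, SE 0.16, limma adjusted p = 0.0336). Tap1, the peptide transporter, was at 51.0, 36.2 and 25.4 CPM in Reference 4 at 2 µM, and its 3 libraries overlapped those of PBS.

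Some members carry doubt in the assignment of their reads. In the last 300 bases, 10 of the 45 genes had a stretch of at least 100 bases with 95% identity or more elsewhere in the transcripts, 8 of them in a gene of the files. Psmb5 shares 99.6% over 227 bases with the pseudogene Gm3375, which had a mean of 89.3 CPM. Psma5 matches the pseudogene Gm12989 at 100% over 138 bases and the pseudogene Gm8394 at 97.2% over 283 bases. For Psmb8 the antisense gene Gm20496 overlaps the end of the gene, and reads of the pair cannot be told apart without a strand setting. Psmc1, Psmd4, Psmd13, Psmd7 and Psma2 had no such copy and no other gene over the last 1000 bases of the gene as annotated. Outside those bases, genes of the files overlap Psma2 (AW209491, same strand) and Psmd13 (Gm15542, same strand, and Sirt3, other strand).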

How the data were processed

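Members, roles, gene lists and tests were chosen with earlier results of these data known. Per the submitters' processing notes, the tools named are cutadapt 1.15, HISAT2 2.1.0 and featureCounts, with the build mm10. Strand setting, annotation release and any cut on low genes: not given in the sources used here. CPM as deposited by the authors sum to 1000000 in every library, with 9657 genes in each (lowest gene mean 1.22 CPM), and none was removed here. Reads were recovered from the size of 1 read per library, and 100% of values came out whole with a tolerance of 0.001, for totals of 14158740 to 37410773 reads per library. These cover listed genes only. Symbols and coordinates are from GENCODE for GRCm38, the assembly of mm10, and 9652 identifiers matched.

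The main test was limma 3.58.1 (R 4.3.3) on log2(CPM + 1), with 7 group means, 21 libraries, a trended robust prior, no covariate and Benjamini-Hochberg adjustment over all genes of a comparison at 0.05. Fold changes on this scale understate changes of low genes, and intervals are 95%. The test was also run on simulated data for 1 comparison, with the same dispersion for all genes. That run cannot show how the test fares with outlying libraries. The 18 comparisons were 6 with PBS, 6 between agents at a dose, 3 between doses and 3 interactions. Alternatives were edgeR 4.0.16 (TMM or DESeq2 size factors) and DESeq2 1.42.0 on recovered reads, TMM-rescaled CPM, a pseudocount of 0.5 or of 5, genes with a mean of 10 CPM or more, a fit of just the compared libraries, a block for replicate number, leaving out 1 library at a time, and PBS library 3 with TTR-1186 2 µM library 2 left out. Replicate numbers come from the titles. Correlations of same-numbered deviations ran from -0.392 to 0.289 over 45 pairs, and all 3 exceeded 0.1 in 2 of 15 comparisons, Reference 4 at 2 µM with PBS and TTR-1236 with Reference 4 at 2 µM.

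Named with every library were the catalytic subunits and their inducible counterparts, and Psme1 and Psme2. Other members past the threshold were named with at least the libraries of the comparison in which they passed. The same holds for the member with the smallest p in each direction against PBS. For Psmd13, Psmd7 and Psma2 only the Reference 4 libraries are printed 1 by 1. The plot of the genes past the threshold shows them in all 7 groups. The highest and lowest member of each role was given by its group range. Of other lists, the rule names members past the threshold against PBS, up to 4, otherwise up to 2 with the smallest p. Exceptions are genes that passed and are counted but not reported here, and genes named in addition, chosen after their values were seen.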

Additional observations from a re-analysis of the deposited data

How the results depend on the processing

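Counts of proteasome genes called were compared over 18 comparisons. For TTR-1236 at 2 µM against PBS the count of 1 became 0 with only the libraries compared and 7 without PBS library 3 and TTR-1186 2 µM library 2. It became 2 by edgeR with DESeq2 size factors (Psmb8 higher, Psmd4 lower) and 3 by DESeq2 (Psmb8 higher, Psmd4 and Psme4 lower). Over all 9657 genes the count was 611 in the main fit, 22 with only the libraries compared and 1914 without those 2 libraries. The values of 22 and 1914 were the lowest and the highest over all settings. For Reference 4 at 2 µM against PBS the count of 0 became 1 with a pseudocount of 5, with a minimum mean of 10 CPM and with the replicate block, 3 by DESeq2 and 6 without those 2 libraries. Over all genes the count was 217 in the main fit, 732 by DESeq2 and 1571 without those 2 libraries. In 4 other comparisons the count of members rose from 0: TTR-1236 against Reference 4 at 0.2 µM to 2 with only the libraries compared and 1 by DESeq2, TTR-1186 against Reference 4 at 2 µM to 1 and TTR-1236 against TTR-1186 at 2 µM to 2 without those 2 libraries, and the dose of TTR-1186 to 2 by DESeq2. In the same order and fits, the counts over all genes were 499, 238, 233, 553 and 106. For the dose of Reference 4, 2 higher and 4 lower members became 3 and 5 with only the libraries compared. Without those 2 libraries they became 4 and 4, where 1819 of all genes passed. The cause of these moves was not tested. Where no count over all genes stands beside a count of members, here or below, its rise cannot be set against the background.

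With each library left out in turn, the counts of members ran from 0 to 6 for TTR-1236 and from 0 to 5 for Reference 4 at 2 µM against PBS. Both were highest without PBS library 3, where 16.4% and 13.2% of all genes passed. For TTR-1236 set against TTR-1186 at 2 µM they ran from 0 to 2 (Psmd13 and Psmd4, without TTR-1236 2 µM library 1). For the dose of Reference 4 they ran from 1 to 7, lowest without Reference 4 2 µM library 3, where 208 of all genes passed. The counts of members stayed at 0 to 0 in the other 14 comparisons. The 1 fold change of a named gene that changed sign was that of Psme1 in TTR-1186 at 2 µM, 0.073 without PBS library 3 and TTR-1186 2 µM library 2. Counts over all genes moved more, from 22 to 1914 for TTR-1236 and from 6 to 1571 for Reference 4 at 2 µM against PBS, and from 208 to 1819 for the dose of Reference 4. The replicate block changed no other count of members, and 20 of 45 pairs correlated best with their own number. Depth limits Psma5 most, with as few as 7 reads.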
